A study of Homo sapiens with 17 samples.

Results

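Cell adhesion molecules other than the matrix receptors were followed in BEAS-2B, an established line of immortalised human bronchial epithelial cells, wild type by its label. The cells had spent 24 h in bronchial growth medium with 0 mM (control, 6 libraries), 10 mM (6 libraries) or 16 mM (5 libraries) acetaldehyde, a reactive aldehyde made from ethanol and carried in tobacco smoke. The line is a single immortalised culture, and no tissue was measured. Members were the genes that the deposited table places in the KEGG pathway Cell adhesion molecules and not in ECM-receptor interaction, with a gene length under 400 kb, leaving out CDH1, CDH2, ICAM1 and the HLA genes. The rule found 85 members among 127 genes of the pathway and 16884 genes in the table. Left out were 15 HLA genes, 9 genes shared with ECM-receptor interaction, 8 long genes, the 3 named genes, and 7 genes (OCLN and CLDN7 among them) whose listed start lies on a scaffold and whose end lies on a chromosome, so that their listed length is not a gene length. CNTN1 (380 kb), NCAM1 (353 kb) and CADM1 (335 kb) lay just inside the length limit, and NTNG1 (411 kb), NECTIN3 (428 kb) and NCAM2 (612 kb) just outside it.

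Cell adhesion molecules are membrane proteins that hold neighbouring cells together or let a passing cell recognise them. In an epithelium, claudins and junctional adhesion molecules seal the tight junction, and cadherins and nectins form the adherens junction beside it, where their tails bind catenins and afadin. Many other cell adhesion molecules are best known from other cells: neural adhesion molecules guide axons, selectin ligands and integrins steer leukocytes, and ligands such as PD-L1 (CD274) pass inhibitory or activating signals to T cells. Soluble forms of several members are released from the cell surface by the proteases ADAM10 and ADAM17.

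Total counts lay between 15952673 and 18809242 per library. Library 1 of the 10 mM group stood apart from the others, with a TMM factor of 0.559 and a correlation of log2 expression across genes of at most 0.866 with the rest of its group. Libraries of a group also fell into close sets (r of at least 0.99 within a set): control 1 to 3 and 4 to 6, 10 mM 2 to 4 and 5 to 6, and 16 mM 1 to 3 and 4 to 5. The labels name neither these sets nor separate cultures, so the spread behind each p-value is that between libraries and may be technical. FPKM are not corrected by the TMM factor, so levels of library 1 in FPKM are lower than its levels in the fit. Of 9 epithelial markers, 5 had a mean of at least 1 FPKM over all libraries, while EPCAM and KRT19, which define many epithelia, were under 0.1 FPKM in all libraries. The 9 summed to between 881 and 1684 FPKM in control, 1122 and 5796 at 10 mM, and 1206 and 1327 at 16 mM. Endothelial markers summed to at most 0.67 FPKM in any library.

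Many members had few reads here. Below 10 counts in every library were 44 members, 41 reached 10 counts in at least 1 library and 27 in all of them, and 35 had enough counts to be tested. Levels are given as FPKM, fragments scaled for transcript length and depth, and can therefore be compared between genes. A mean of at least 1 FPKM was found for 27 members and of at least 10 FPKM for 16. ALCAM, an immunoglobulin-family molecule that binds CD6 on T cells and itself on neighbouring cells, was the most abundant in control, at 202 ± 46.9 FPKM (SD, n = 6). CD99, a small glycoprotein that leukocytes use when they cross a cell layer, followed at 113 ± 4.92 FPKM. Next came PTPRF, the receptor phosphatase LAR, at 44.9 ± 6.19 FPKM, NECTIN2, a nectin of the adherens junction, at 44.5 ± 4.3, SDC2, a heparan sulphate proteoglycan, at 42.1 ± 2.76, and MPZL1, a relative of myelin protein zero that signals through the phosphatase SHP2, at 41.1 ± 0.899. These 4 did not differ in order beyond their spread.

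**Figure D1:**
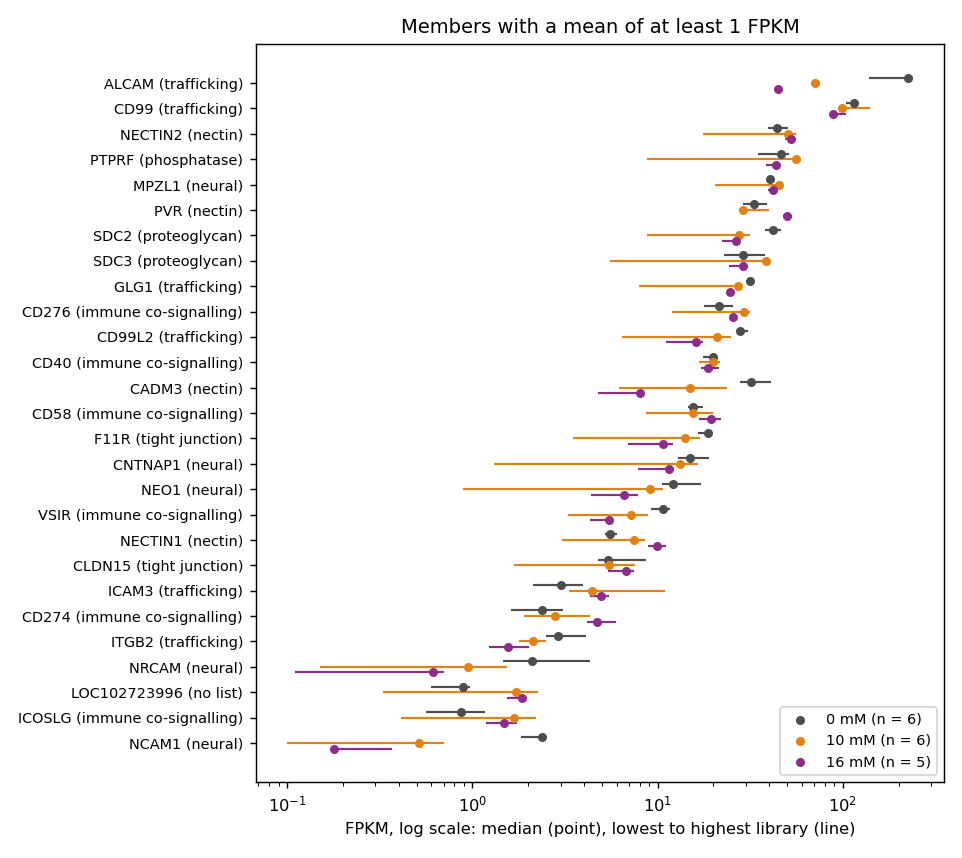
Level of the 27 members with a mean of at least 1 FPKM, on a logarithmic axis; points are medians and lines run from the lowest to the highest library of 0 mM (n = 6), 10 mM (n = 6) and 16 mM (n = 5). ALCAM and CD99 head the list, and the long low ends of many 10 mM lines are library 1 of that group.

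Of the 35 tested members, 7 were higher and 12 lower at 16 mM than at 0 mM, and 16 did not pass. The test was the quasi-likelihood test of edgeR, with the Benjamini-Hochberg adjustment taken over 12564 tested genes, and a member passed at an edgeR adjusted p under 0.05. These are 54.3% of the tested members, where 35.3% of all tested genes were called (17.3% higher, 18.1% lower). The median log2 change was -0.10 over the tested members and 0.00 over all tested genes. At 10 mM, 6 members were higher and 8 lower, beside 18.7% of all tested genes (9.41% higher, 9.3% lower). Both doses were compared with the same 6 control libraries. Groups that did not overlap in FPKM were found for 9 members higher (23.8% of all tested genes) and 14 lower (22.3%) at 16 mM, and for 0 members higher (4.55%) and 8 lower (10.5%) at 10 mM. In the authors' deposited table, 9 members were higher and 16 lower at 16 mM with a q-value under 0.05, of 83 with a value. At 10 mM 7 were higher and 8 lower, of 82. The share of all genes past that q-value was not taken, so these counts cannot be set against it.

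More members passed when library 1 of the 10 mM group was left out. Without it, 12 members were higher and 15 lower at 16 mM, beside 65.9% of all tested genes (33.7% higher, 32.2% lower). At 10 mM 11 were higher and 15 lower, beside 45.2% (22.4% higher, 22.8% lower). All 19 calls at 16 mM and all 14 at 10 mM remained in the same direction. With the libraries of each close set summed to 1 sample, 0 of the 47 members then tested passed in any comparison by edgeR's quasi-likelihood test, beside 0.0% of all tested genes. At an unadjusted p under 0.05 there were 4 higher and 8 lower at 16 mM, and 3 higher and 5 lower at 10 mM. The share of all genes past that unadjusted p was not taken, so these counts cannot be set against it. With close sets summed and 10 mM library 1 left out, 7 were higher and 11 lower at 16 mM, beside 25.8% of all tested genes (11.8% higher, 14.0% lower), and 17 of them were among the 19 called above (all but CDH3 and ICOSLG). At 10 mM 1 was higher (CD22) and 3 lower (ALCAM, NCAM1 and TIGIT), beside 1.83% (0.408% higher, 1.42% lower).

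The close sets also ran largely in parallel across the doses, with 10 mM library 1 left aside. Control 2 and 3, 10 mM 2 to 4 and 16 mM 1 to 3 deviated from their group means together. So did control 4 to 6, 10 mM 5 and 6, and 16 mM 4 and 5. Control 1, though matched with control 2 and 3, did not: its correlations of deviations with the 16 mM libraries lay between -0.04 and 0.04. The correlation of deviations across genes had a median of 0.28 over 43 pairs of libraries from matching sets (39 positive). Over 42 pairs from opposite sets the median was -0.27 (3 positive). Sets were matched by the sign of their mean correlation with 16 mM libraries 1 to 3. The signs of these medians are thus in part fixed by the matching and are no test of it. The matching was read from the data and not from the labels, so fits with it as a block are descriptions of these libraries. With that block and without 10 mM library 1, 12 members were higher and 16 lower at 16 mM, beside 74.0% of all tested genes (37.5% higher, 36.5% lower), and 13 higher and 16 lower at 10 mM, beside 57.6% (28.6% higher, 28.9% lower). Between the doses 6 were higher and 16 lower, beside 57.6% (29.5% higher, 28.1% lower). With close sets summed as well, 9 were higher and 15 lower at 16 mM, beside 42.5% (22.5% lower, the rest higher), and these held all 19 calls of the fit over single libraries. At 10 mM 5 were then higher and 7 lower, beside 12.4% (5.35% higher, 7.06% lower), with 9 of the 14 calls kept and those of CD274, CD99L2, CDH3, SELPLG and VSIR lost.

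Leaving out 1 library at a time, 17 in all, ended 8 calls of the members named below, and no direction among these turned. At 10 mM CD274 lost its call without control 1, 4, 5 or 6 or 10 mM 2, 3 or 4 (edgeR adjusted p of 0.0509 to 0.0839). CD99L2 lost it without control 4, 5 or 6 or 10 mM 5 or 6 (0.0503 to 0.0654), NRCAM without control 1, 2 or 3 or 10 mM 5 or 6 (0.052 to 0.0759), and SELPLG without control 1, 2 or 5 (0.0574 to 0.0673). CDH3 lost its call at 10 mM without any of 8 libraries (0.0502 to 0.0821) and at 16 mM without any of 6 (0.0504 to 0.0721). Between the doses, CD274 lost its call without 10 mM 2, 5 or 6 or 16 mM 4 or 5 (0.0579 to 0.109), and CADM3 without 10 mM 2, 3 or 4 or any 16 mM library (0.0509 to 0.108). The number of members lower at 10 mM was 5 without 10 mM library 5, and again 5 without library 6.

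**Figure D2:**
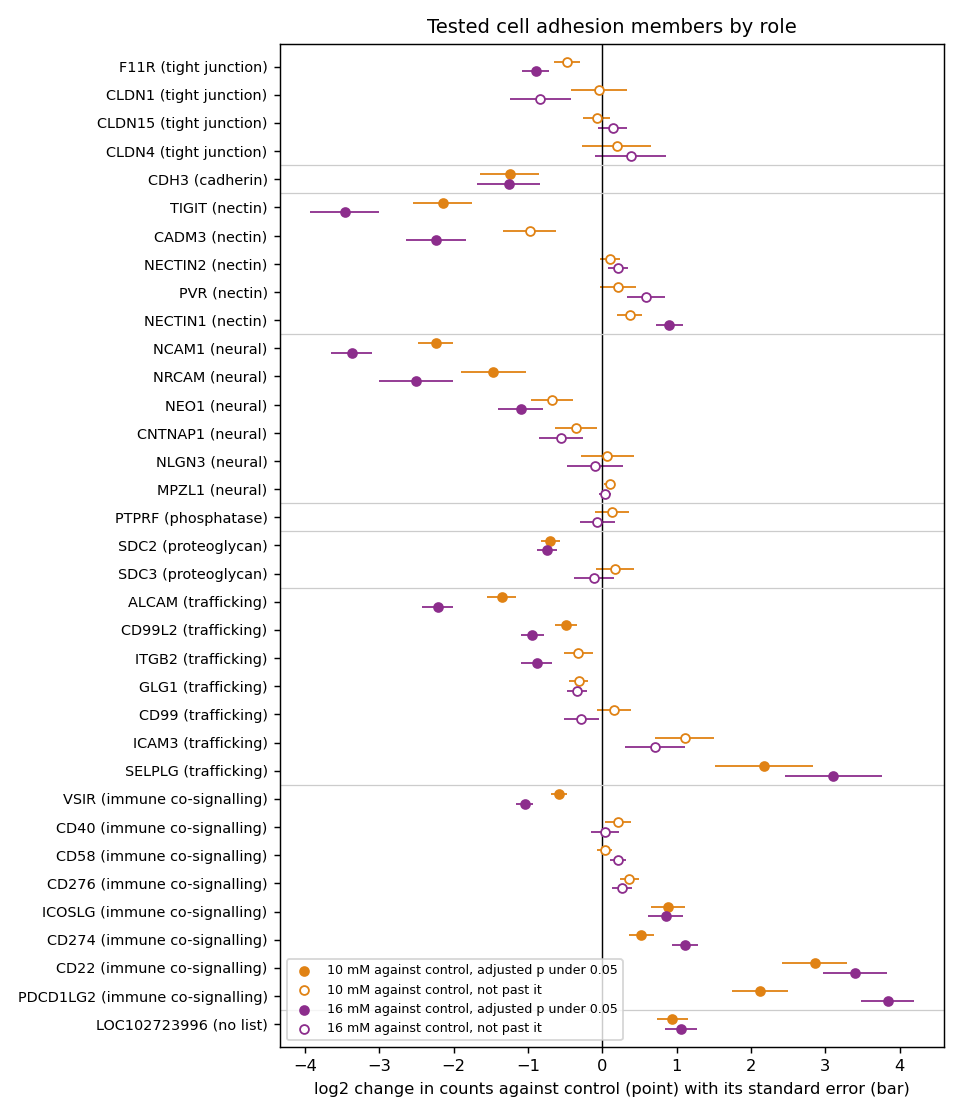
Log2 change of the 35 tested members against control, grouped by role, as point with standard error for 10 mM and 16 mM; filled points passed the edgeR adjusted p of 0.05. At 16 mM 7 members are higher and 12 lower, with PDCD1LG2 at 3.84 and TIGIT at -3.46 at the ends.

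Most tight junction members had too few counts to be tested, and the most abundant of them, the junctional adhesion molecule F11R, fell. Of 21 claudins and junctional adhesion molecules among the members, 4 could be tested, 0 rose and 1 fell at 16 mM (median log2 change -0.35, all tested genes 0.00), where 18.1% of all tested genes were lower. F11R, or JAM-A (chromosome 1, 160995211 to 161021152, GRCh38.p13), binds its own kind across the cell border and the PDZ scaffolds of the tight junction within the cell. F11R lay between 16.6 and 19.3 FPKM in control (median 18.7), between 3.48 and 17.0 at 10 mM (median 14.0), and at 12.2, 10.7, 11.6, 6.92 and 8.15 at 16 mM. All 16 mM libraries were below all control libraries, and the close sets differed, with 16 mM libraries 4 and 5 lowest. F11R fell by 0.90 ± 0.19 on the log2 scale at 16 mM (estimate ± SE, edgeR adjusted p = 0.00128, 1.87-fold lower, 5 of 5 libraries below control). At 10 mM its change was -0.48 ± 0.18 (edgeR adjusted p = 0.0636), and without library 1 it was -0.34 ± 0.11 (edgeR adjusted p = 0.0159). CLDN15, a claudin that forms cation pores, was at 5.98 ± 1.46 FPKM in control and 6.46 ± 0.822 at 16 mM (log2 change 0.14 ± 0.19, edgeR adjusted p = 0.622). The sealing claudin CLDN1 and the airway claudin CLDN4 were at 0.660 ± 0.280 and 0.458 ± 0.243 FPKM in control, and neither passed at either dose. These 3 claudins are outside the rule for named genes and were chosen after their values were seen. So were OCLN (occludin) and CLDN23, strand proteins left out of the members by their mixed coordinates. OCLN was at 13.2 ± 3.24 FPKM in control and fell by 0.56 ± 0.21 on the log2 scale at 16 mM (edgeR adjusted p = 0.0472), and CLDN23, at 0.562 ± 0.253 FPKM in control, rose by 1.03 ± 0.34 (edgeR adjusted p = 0.0252).

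The 3 cadherins among the members were near the limit of detection. CDH3 (P-cadherin, chromosome 16, 68636189 to 68727573), found in basal epithelial cells, had 10 to 24 counts per control library and 5 to 10 at 16 mM, and CDH15, the cadherin of muscle, had at most 5 counts in any library. CDH3 lay between 0.15 and 0.41 FPKM in control and at 0.10, 0.14, 0.15, 0.10 and 0.19 at 16 mM. The groups overlapped, with control library 2 at 0.15. CDH3 fell by 1.26 ± 0.42 on the log2 scale at 16 mM (edgeR adjusted p = 0.0283) and by 1.25 ± 0.40 at 10 mM (edgeR adjusted p = 0.0395). Both calls were lost with close sets summed, with or without 10 mM library 1, and with matching sets as a block as well the 16 mM call held (edgeR adjusted p = 0.0451) and that at 10 mM did not (edgeR adjusted p = 0.106). CDH4 (R-cadherin), left out of the members by its mixed coordinates and named after its values were seen, was at 1.03 ± 0.171 FPKM in control and 0.0800 ± 0.0324 at 16 mM, and fell by 3.64 ± 0.39 on the log2 scale (edgeR adjusted p = 2.88e-06).

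Nectins and their relatives went apart: NECTIN1 rose while CADM3 fell, and NECTIN2 and PVR did not pass at 16 mM with all libraries but did without library 1 of the 10 mM group. Of 7 members of this list 5 were tested, with 1 higher and 2 lower at 16 mM, where 17.3% of all tested genes were higher and 18.1% lower. The lower were CADM3 and the row of TIGIT, whose reads may be those of another gene. NECTIN1 (chromosome 11, 119623408 to 119729200) is an immunoglobulin-like molecule of adherens junctions whose tail binds afadin. NECTIN1 lay between 5.18 and 6.01 FPKM in control (median 5.55), between 3.03 and 8.53 at 10 mM (median 7.48), and at 8.89, 10.7, 9.97, 9.81 and 11.1 at 16 mM. Every 16 mM library was above every library of the other groups, and the lowest 10 mM value was library 1, with the other 10 mM libraries at 7.30 or more. NECTIN1 rose by 0.90 ± 0.18 on the log2 scale at 16 mM (edgeR adjusted p = 0.000942, 1.87-fold). At 10 mM it was 0.37 ± 0.17 (edgeR adjusted p = 0.14), and without library 1 0.52 ± 0.06 (edgeR adjusted p = 8.73e-06).

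PVR, the poliovirus receptor or nectin-like 5 (chromosome 19, 44643910 to 44666162), is a ligand of the lymphocyte receptors CD226 and TIGIT and is found at the leading edge of moving cells. PVR lay between 28.8 and 38.8 FPKM in control (median 33.1), between 27.6 and 40.0 at 10 mM (median 28.9), and at 47.6, 49.7, 47.7, 52.6 and 52.9 at 16 mM. In FPKM all 16 mM libraries were above all others, and the highest 10 mM value was library 1, with the other 10 mM libraries at 29.2 or less. The TMM factor does not correct FPKM, and library 1 stood higher in the fit. Counts of the 2 doses overlapped, at 2018 to 3881 at 10 mM and 3330 to 3948 at 16 mM. At 16 mM PVR changed by 0.59 ± 0.25 on the log2 scale (1.5-fold), which did not pass (edgeR adjusted p = 0.0837). Without 10 mM library 1 the estimate was again 0.59, with an SE of 0.07 and an edgeR adjusted p of 1.06e-06. It also passed in limma on log2(FPKM + 1) with all libraries (limma adjusted p = 0.000309) and in edgeR over only the groups compared (edgeR adjusted p = 9.86e-06). At 10 mM its change turned from 0.21 ± 0.24 (edgeR adjusted p = 0.562) to -0.20 ± 0.07 (edgeR adjusted p = 0.0243) when that library was left out, and by limma on log2(FPKM + 1) with all libraries it was -0.13 (limma adjusted p = 0.406).

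NECTIN2, which pairs with other nectins and binds CD226, was at 44.5 ± 4.3 FPKM in control (n = 6), 46.1 ± 14.3 at 10 mM (n = 6) and 52.2 ± 2.33 at 16 mM (n = 5), and its 16 mM change of 0.21 ± 0.14 did not pass (edgeR adjusted p = 0.251). Without 10 mM library 1 it was 0.22 ± 0.07 (edgeR adjusted p = 0.0141). CADM3 (nectin-like 1, chromosome 1, 159147727 to 159203313) is best known from contacts between axons and glia. CADM3 lay between 27.7 and 40.7 FPKM in control (median 31.8), between 6.18 and 23.7 at 10 mM (median 14.9), and at 8.54, 8.00, 8.35, 4.77 and 4.76 at 16 mM. In FPKM both treated groups were below control, and the 10 mM libraries spread by close set. Library 1 was at 23.7, libraries 2 to 4 at 14.8, 15.0 and 15.1, and libraries 5 and 6 at 6.21 and 6.18. The TMM factor does not correct FPKM, and library 1 stood higher in the fit, so its gap from control is shown for FPKM only. CADM3 fell by 2.24 ± 0.40 on the log2 scale at 16 mM (edgeR adjusted p = 0.00035, 4.72-fold lower). At 10 mM the change was -0.98 ± 0.36 (edgeR adjusted p = 0.0654), and -1.5 ± 0.23 without library 1 (edgeR adjusted p = 7.28e-05).

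The row of TIGIT, a lymphocyte receptor for PVR and NECTIN2, was named after its values were seen. It fell by 3.46 ± 0.46 on the log2 scale at 16 mM (edgeR adjusted p = 2.54e-05), from 189 to 350 counts per control library to 14 to 35. The row overlaps that of ZBTB20, a zinc finger repressor, by 15248 bases. Its counts and FPKM together imply a transcript of 22.4 kb, where the other tested members had a median of 3.26 kb and at most 8.91 kb. Reads from the overlapping genes cannot be told apart, and the value cannot be credited to TIGIT.

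Among neural adhesion molecules, NCAM1, NRCAM and NEO1 fell at 16 mM. Of 17 members of this list 6 were tested, 0 were higher and 3 lower at 16 mM, where 18.1% of all tested genes were lower. Their median log2 change was -0.83 (all tested genes 0.00). NCAM1 (chromosome 11, 112961420 to 113314482), the neural cell adhesion molecule that binds itself and the FGF receptor, lay between 1.83 and 2.53 FPKM in control (median 2.37), between 0.10 and 0.70 at 10 mM (median 0.515), and at 0.37, 0.18, 0.17, 0.18 and 0.19 at 16 mM. All treated libraries were below all controls, and the lowest 10 mM value was library 1. NCAM1 fell by 2.24 ± 0.23 on the log2 scale at 10 mM (edgeR adjusted p = 9.97e-06, 4.72-fold lower) and by 3.37 ± 0.27 at 16 mM (edgeR adjusted p = 1.43e-07, 10.4-fold lower).

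NRCAM (chromosome 7, 108147623 to 108456720), an L1-family molecule of the axon, lay between 1.47 and 4.33 FPKM in control (median 2.11), between 0.15 and 1.54 at 10 mM (median 0.945), and at 0.70, 0.64, 0.61, 0.18 and 0.11 at 16 mM. Control libraries 1 to 3 (2.55, 4.33 and 4.05) stood above control libraries 4 to 6 (1.47, 1.65 and 1.67), and the 16 mM libraries were below both sets. NRCAM fell by 2.51 ± 0.50 on the log2 scale at 16 mM (edgeR adjusted p = 0.000882, 5.69-fold lower) and by 1.46 ± 0.44 at 10 mM (edgeR adjusted p = 0.0295). NEO1, neogenin (chromosome 15, 73051053 to 73318769), a receptor for netrins, repulsive guidance molecules and bone morphogenetic protein signalling, lay between 10.5 and 17.1 FPKM in control (median 12.1), between 0.89 and 10.7 at 10 mM (median 9.14), and at 7.85, 6.87, 6.55, 4.68 and 4.35 at 16 mM. The 16 mM libraries were below all controls, whereas 10 mM library 4, at 10.7, reached the control range. NEO1 fell by 1.1 ± 0.30 on the log2 scale at 16 mM (edgeR adjusted p = 0.0094, 2.14-fold lower), and its 10 mM change of -0.68 ± 0.28 did not pass (edgeR adjusted p = 0.0999). MPZL1 was at 41.1 ± 0.899 FPKM in control and 42.0 ± 1.96 at 16 mM (log2 change 0.03 ± 0.08, edgeR adjusted p = 0.764).

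Neural and glial marker genes summed to between 5.15 and 6.14 FPKM in control and between 5.89 and 8.00 at 16 mM, with SNAP25 under 0.1 FPKM in all libraries. Fibroblast markers summed to between 15.0 and 25.1 FPKM in control and between 4.91 and 10.0 at 16 mM, with COL1A2 under 0.1 FPKM in all libraries. Their part in the falls of the adhesion molecules was not tested. In bulk RNA, fewer cells of a type and less RNA per cell cannot be told apart.

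The phosphatase PTPRF (chromosome 1, 43522238 to 43623666), which is drawn to cell-cell contacts, was at 44.9 ± 6.19 FPKM in control (n = 6), 48.2 ± 19.5 at 10 mM (n = 6, library 1 at 8.75) and 42.5 ± 2.98 at 16 mM (n = 5). It passed at neither dose, with log2 changes of 0.13 ± 0.22 and -0.07 ± 0.24 (edgeR adjusted p = 0.706 and 0.857). Without library 1 its change at 10 mM was 0.32 ± 0.09 (edgeR adjusted p = 0.0102). Of 3 proteoglycan members 2 were tested, and SDC2, the syndecan of mesenchymal and early epithelial cells, fell at both doses. SDC2 lay between 38.0 and 46.1 FPKM in control (median 42.0), between 8.81 and 31.4 at 10 mM (median 27.5), and at 27.8, 26.3, 27.1, 22.3 and 22.5 at 16 mM. All treated libraries were below all controls. SDC2 fell by 0.70 ± 0.13 on the log2 scale at 10 mM (edgeR adjusted p = 0.00118) and by 0.74 ± 0.13 at 16 mM (edgeR adjusted p = 0.000393, 1.67-fold lower), and the step from 10 to 16 mM did not pass (-0.04 ± 0.13, edgeR adjusted p = 0.847). SDC3, the syndecan best known from nerve and muscle, was at 29.8 ± 7.46 FPKM in control and 27.5 ± 2.82 at 16 mM, with control libraries 1 to 3 between 22.9 and 23.3 and control libraries 4 to 6 between 34.5 and 37.9. Its change at 16 mM was -0.11 ± 0.27 (edgeR adjusted p = 0.793).

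Among 19 members that serve leukocyte and endothelial traffic, 7 were tested, and 1 was higher and 3 were lower at 16 mM, where 17.3% of all tested genes were higher and 18.1% lower. Their median log2 change was -0.34 (all tested genes 0.00). ALCAM (chromosome 3, 105366909 to 105576900) fell most in absolute level of all members. ALCAM lay between 138 and 239 FPKM in control (median 225), between 66.9 and 75.6 at 10 mM (median 70.7), and at 44.5, 43.5, 45.1, 44.4 and 42.9 at 16 mM. In FPKM the 3 groups did not overlap, and 10 mM library 1, at 68.3, lay with the rest of its group. The TMM factor does not correct FPKM, so library 1 stood higher than this in the fit. Control libraries 2 and 3, at 145 and 138, stood below the other 4 controls, at 224 to 239. ALCAM fell by 1.35 ± 0.19 on the log2 scale at 10 mM (edgeR adjusted p = 0.000145, 2.56-fold lower) and by 2.21 ± 0.21 at 16 mM (edgeR adjusted p = 7.71e-07, 4.64-fold lower). Without library 1 the change at 10 mM was -1.51 ± 0.15 (edgeR adjusted p = 7.84e-07). From 10 to 16 mM ALCAM fell by 0.86 ± 0.20 with all libraries (edgeR adjusted p = 0.0112). At 16 mM the most abundant tested member was thus no longer ALCAM but CD99, at 92.4 ± 7.07 FPKM.

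CD99 was at 113 ± 4.92 FPKM in control and 104 ± 17.8 at 10 mM, where library 1 stood at 140 and the others between 93.7 and 98.4. Its change at 16 mM did not pass (-0.28 ± 0.24, edgeR adjusted p = 0.394), and without 10 mM library 1 it was -0.27 ± 0.07 (edgeR adjusted p = 0.0024). CD99L2, its paralog in transmigration (chromosome X, 150766336 to 150906522), lay between 27.3 and 30.6 FPKM in control (median 27.7), between 6.46 and 25.0 at 10 mM (median 21.0), and at 17.6, 16.9, 16.1, 11.1 and 11.5 at 16 mM. Both treated groups were below all controls, with libraries 4 and 5 lowest at 16 mM. CD99L2 fell by 0.94 ± 0.16 on the log2 scale at 16 mM (edgeR adjusted p = 0.000218, 1.92-fold lower) and by 0.48 ± 0.15 at 10 mM (edgeR adjusted p = 0.0314). ITGB2, the beta chain of leukocyte integrins, named after its values were seen, fell from 3.10 ± 0.643 to 1.66 ± 0.351 FPKM at 16 mM (log2 change -0.88 ± 0.21, edgeR adjusted p = 0.00342).

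SELPLG (PSGL-1, chromosome 12, 108621895 to 108633894), the ligand by which leukocytes roll on selectins, rose from a very low base. It had 2 to 8 counts per control library, 6 to 52 at 10 mM with the highest value in library 1, and 24 to 65 at 16 mM. In FPKM it lay between 0.05 and 0.21 in control (median 0.13), between 0.16 and 1.22 at 10 mM, and at 0.69, 0.79, 0.67, 1.72 and 1.54 at 16 mM. The 16 mM libraries did not overlap control, and libraries 4 and 5 were the highest. The log2 change was 3.11 ± 0.65 at 16 mM (edgeR adjusted p = 0.00134) and 2.18 ± 0.66 at 10 mM (edgeR adjusted p = 0.0298), where it was 1.21 ± 0.46 without library 1 (edgeR adjusted p = 0.0403).

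**Figure D3:**
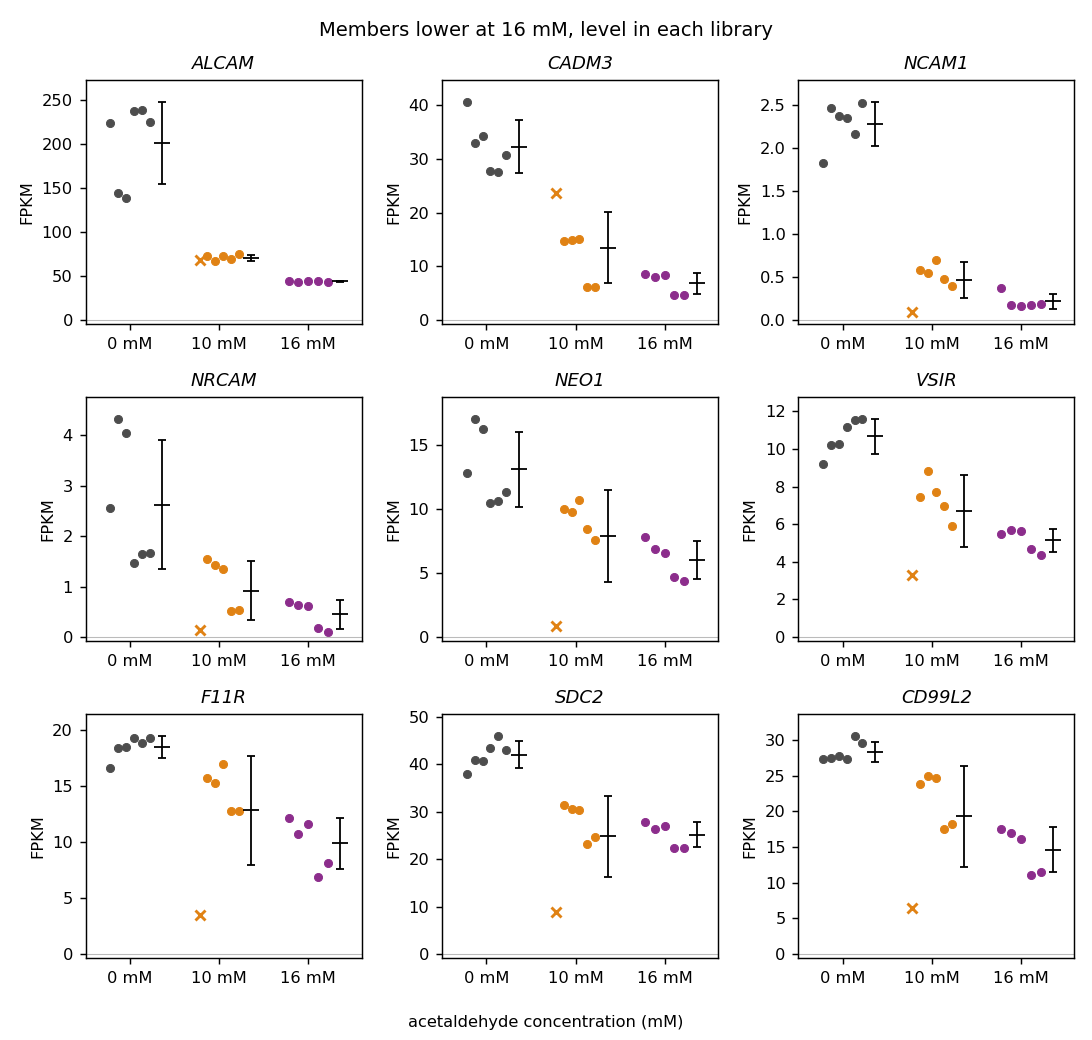
FPKM of 9 members lower at 16 mM in each library at 0, 10 and 16 mM, in order of replicate number (the cross is 10 mM library 1), with the mean and SD of each group beside its points. In FPKM, which the TMM factor does not correct, ALCAM forms 3 separate levels. CADM3, NRCAM and NEO1 show steps between the close sets within a dose.

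The inhibitory ligands of the T cell receptor PD-1 were called higher at both doses with all libraries. At 10 mM the call of CD274 was lost under 16 of 31 other settings, and that of PDCD1LG2 under 2 of 28. Of 13 immune co-signalling members 8 were tested. At 16 mM 4 were higher and 1 lower, where 17.3% of all tested genes were higher and 18.1% lower. Their median log2 change was 0.56 (all tested genes 0.00). At 10 mM 4 were higher and 1 lower, where 9.41% of all tested genes were higher and 9.3% lower. Their median was 0.44 (all tested genes 0.05). CD274, or PD-L1 (chromosome 9, 5450542 to 5470961), lay between 1.61 and 3.09 FPKM in control (median 2.37), between 1.90 and 4.29 at 10 mM (median 2.80), and at 4.73, 4.17, 4.36, 5.75 and 5.98 at 16 mM. The 16 mM libraries were above all controls, and the 10 mM group overlapped both. CD274 rose by 0.52 ± 0.17 on the log2 scale at 10 mM (edgeR adjusted p = 0.0393), by 1.11 ± 0.17 at 16 mM (edgeR adjusted p = 0.000122, 2.15-fold) and by 0.58 ± 0.17 from 10 to 16 mM (edgeR adjusted p = 0.034).

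PDCD1LG2, or PD-L2, is its neighbour on chromosome 9 (5457410 to 5628983) and the second ligand of PD-1. PDCD1LG2 lay between 0.03 and 0.17 FPKM in control (median 0.055), between 0.17 and 0.47 at 10 mM (median 0.275), and at 1.08, 1.42, 1.1, 1.09 and 0.82 at 16 mM. The 16 mM libraries stood above all others, and the counts were 1 to 6 per control library, 7 to 17 at 10 mM and 30 to 51 at 16 mM. The log2 change was 2.12 ± 0.38 at 10 mM (edgeR adjusted p = 0.00104), 3.84 ± 0.36 at 16 mM (edgeR adjusted p = 5.82e-07, 14.3-fold) and 1.72 ± 0.30 between the doses (edgeR adjusted p = 0.00198). Control counts this low make the size of the fold uncertain. The listed spans of CD274 and PDCD1LG2 overlap each other and that of RIC1, so reads of these genes in the shared stretch cannot be told apart.

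ICOSLG (chromosome 21, 44216979 to 44240943), the ligand of the T cell co-stimulator ICOS, lay between 0.56 and 1.17 FPKM in control (median 0.865), between 0.41 and 2.20 at 10 mM (median 1.67), and at 1.67, 1.49, 1.75, 1.33 and 1.19 at 16 mM. The 16 mM libraries were just above all controls, and the lowest 10 mM value was library 1. ICOSLG rose by 0.89 ± 0.23 on the log2 scale at 10 mM (edgeR adjusted p = 0.0135) and by 0.85 ± 0.24 at 16 mM (edgeR adjusted p = 0.0105). Both calls were lost with close sets summed, with or without 10 mM library 1, and both held with matching sets as a block as well (edgeR adjusted p = 0.0136 and 0.00816). LOC102723996, a near-identical copy of the ICOS ligand gene on the same chromosome, rose by 0.94 ± 0.21 and 1.05 ± 0.22 (edgeR adjusted p = 0.00491 and 0.00111). The division of reads between the pair is uncertain, so their rises are not independent. CD22, an inhibitory receptor of B cells, named after its values were seen, was higher by 3.40 ± 0.43 at 16 mM (edgeR adjusted p = 1.43e-05) on 10 to 21 counts per library, against 0 to 4 in control.

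VSIR, or VISTA (chromosome 10, 71747556 to 71773520), another inhibitory molecule of the B7 family, went the other way. VSIR lay between 9.21 and 11.6 FPKM in control (median 10.7), between 3.30 and 8.82 at 10 mM (median 7.20), and at 5.46, 5.67, 5.63, 4.66 and 4.34 at 16 mM. All treated libraries were below all controls. VSIR fell by 0.58 ± 0.11 on the log2 scale at 10 mM (edgeR adjusted p = 0.00116), by 1.04 ± 0.11 at 16 mM (edgeR adjusted p = 2.84e-06, 2.06-fold lower) and by 0.46 ± 0.11 between the doses (edgeR adjusted p = 0.0131). Its row overlaps that of CDH23. The most abundant members of the list, CD276 (B7-H3), CD40 and CD58, named after their values were seen, did not pass at either dose. Without 10 mM library 1, CD276 was higher at both doses (0.45 ± 0.10 and 0.27 ± 0.10 on the log2 scale, edgeR adjusted p = 0.00155 and 0.0244) and CD58 at 16 mM (0.21 ± 0.09, edgeR adjusted p = 0.0498). CD40, the receptor for CD40 ligand of T cells, was at 19.6 ± 1.32 FPKM in control and 19.5 ± 1.95 at 16 mM.

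Leukocyte marker genes summed to between 3.18 and 4.91 FPKM in control, 9.17 and 13.5 at 10 mM, and 11.5 and 14.5 at 16 mM. Of the 6 markers found in the files only CD68, a lysosomal protein, had a mean of at least 1 FPKM (3.32 ± 0.669 FPKM in control, 12.1 ± 1.4 at 16 mM), while PTPRC, CD3E and ITGAM, which define leukocytes and myeloid cells, were under 0.1 FPKM in all libraries. The part of that rise in the co-signalling results was not tested.

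**Figure D4:**
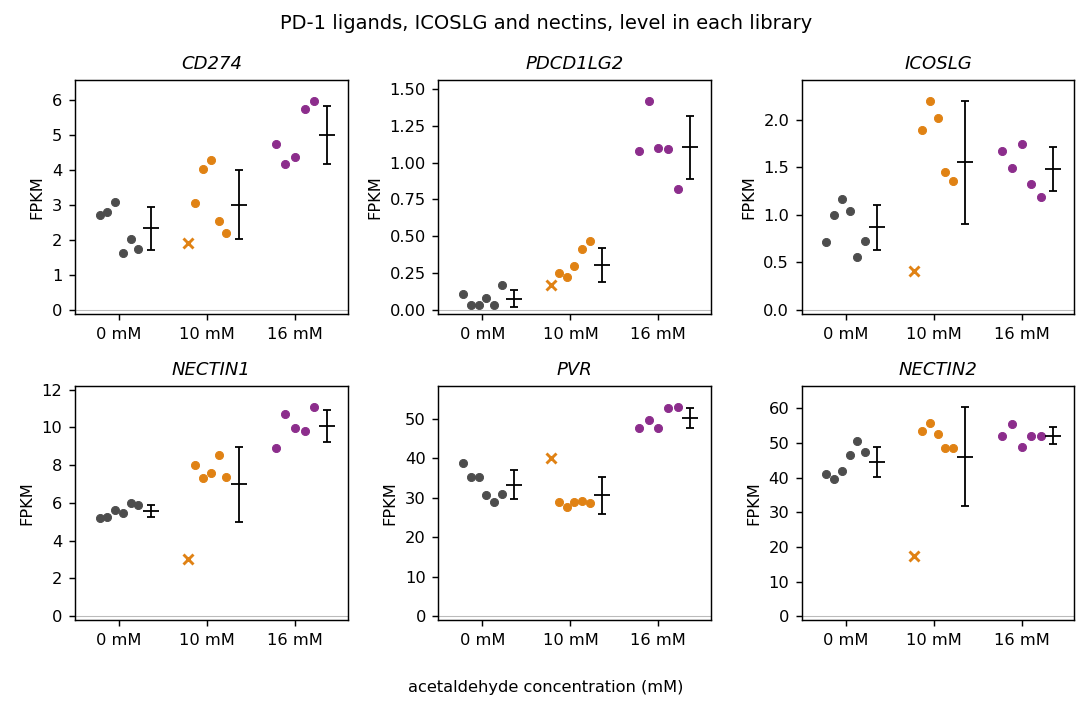
FPKM of the PD-1 ligands CD274 and PDCD1LG2, of ICOSLG and of 3 nectins in each library at 0, 10 and 16 mM, in order of replicate number (the cross is 10 mM library 1), with the mean and SD of each group beside its points. At 16 mM CD274 lies between 4.17 and 5.98 and PDCD1LG2 between 0.82 and 1.42, above all controls, and the cross lies far below its group for NECTIN1 and NECTIN2 and above it for PVR.

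Promoter sequences are shown for 3 members with clear changes in opposite directions, CD274, which rose, and ALCAM and VSIR, which fell. They are the 250 bases before the annotated start, from RefSeq on GRCh38.p14, and 56 of the 85 members had an entry. CD274 is at chr9:5450292-5450541 (plus strand), VSIR at chr10:71773521-71773770 (minus strand) and ALCAM at chr3:105366659-105366908 (plus strand). Capitals mark matches on either strand to 4 sets of letters: TGANTCA (AP-1), TGACNNNGC (the antioxidant response element), GAAA followed after any 2 bases by GAAA (the interferon-stimulated response element) and GGGA followed after any 4 bases by CC (a loose form of the NF-kB site). The AP-1 and antioxidant letters share their first bases, so 1 stretch can match both.
CD274: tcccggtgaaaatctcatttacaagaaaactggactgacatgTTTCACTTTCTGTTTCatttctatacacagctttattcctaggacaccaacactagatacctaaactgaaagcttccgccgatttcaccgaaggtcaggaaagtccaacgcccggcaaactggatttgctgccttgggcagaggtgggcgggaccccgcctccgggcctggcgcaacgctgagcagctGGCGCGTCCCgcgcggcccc
VSIR: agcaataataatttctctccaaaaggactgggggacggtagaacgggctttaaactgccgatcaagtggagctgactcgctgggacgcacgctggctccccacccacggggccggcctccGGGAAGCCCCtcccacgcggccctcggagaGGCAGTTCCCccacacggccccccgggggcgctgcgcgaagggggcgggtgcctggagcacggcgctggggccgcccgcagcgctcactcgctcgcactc
ALCAM: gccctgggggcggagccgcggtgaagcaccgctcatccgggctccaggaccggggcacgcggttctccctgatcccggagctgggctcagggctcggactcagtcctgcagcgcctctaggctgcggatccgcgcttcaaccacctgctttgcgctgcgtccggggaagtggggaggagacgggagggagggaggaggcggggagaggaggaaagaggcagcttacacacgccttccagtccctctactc

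The CD274 window held 2 overlapping matches to the interferon letters, starting 208 and 202 bases before the gene's start, and 1 NF-kB match 20 bases before it. The VSIR window held 2 NF-kB matches, 130 and 100 bases before the start, and the ALCAM window none of the 4. The interferon letters occurred in 3.07% of 27305 promoters and in 3 of the 56 member promoters, and the NF-kB letters in 22.1% and in 17 of 56. The AP-1 letters occurred in 6.6% of all promoters and 5 of 56 members, and the antioxidant letters in 11.0% and 4 of 56. Neither was found in the promoters of the 4 higher and 7 lower members with an entry. The interferon letters were in 1 of the 4 higher (CD274), 1 of the 7 lower (NEO1) and 0 of the 15 not called. The NF-kB letters were in 1 of the 4 higher (CD274), 1 of the 7 lower (VSIR) and 9 of the 15 not called. A match is a description of these letters, and no binding was measured.

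Between the doses fewer members passed. From 10 to 16 mM 2 members rose (PDCD1LG2 and CD274) and 4 fell (CADM3, NCAM1, ALCAM and VSIR), where 14.1% of all tested genes were called (6.69% higher, 7.46% lower). Groups that did not overlap in FPKM were found for 3 members higher (13.3% of all tested genes) and 1 lower (4.49%). CADM3 fell by 1.26 ± 0.38 on the log2 scale (edgeR adjusted p = 0.0376) and NCAM1 by 1.13 ± 0.26 (edgeR adjusted p = 0.0111). Without 10 mM library 1, 5 members were higher and 13 lower, beside 44.1% of all tested genes (23.2% higher, 20.9% lower). PVR was then higher at 16 than at 10 mM by 0.79 ± 0.07 (edgeR adjusted p = 1.93e-06), where it had been 0.38 ± 0.25 (edgeR adjusted p = 0.313) with all libraries, and NECTIN1 by 0.39 ± 0.07 (edgeR adjusted p = 0.000318). With close sets summed and that library left out, 0 members passed between the doses by edgeR's quasi-likelihood test, beside 0.0% of all tested genes. At an unadjusted p under 0.05 there were 6 higher and 8 lower, and the share of all genes past it was not taken. With matching sets as a block as well, 3 were higher and 5 lower, beside 5.41% of all tested genes (1.91% higher, 3.5% lower), and 3 of the 6 calls were kept (ALCAM, NCAM1 and PDCD1LG2).

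More of the longer members were lower. Of 11 tested members with a gene length of at least 100 kb, 2 were higher and 6 lower at 16 mM, with a median log2 change of -0.74. Of 24 shorter members, 5 were higher and 6 lower, with a median of 0.03. Across the 35 members Spearman's rho between length and change was -0.46, and across 11538 tested genes under 400 kb it was -0.13. Among all these genes, 29.6% of those of at least 100 kb and 13.8% of the shorter were lower. Genes are not independent replicates, and length here is that of the listed gene, which the rule itself limits. PDCD1LG2 (171573 bases as listed) was the long member with the largest rise, and CADM3 (55586 bases) a short member with a large fall.

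**Figure D5:**
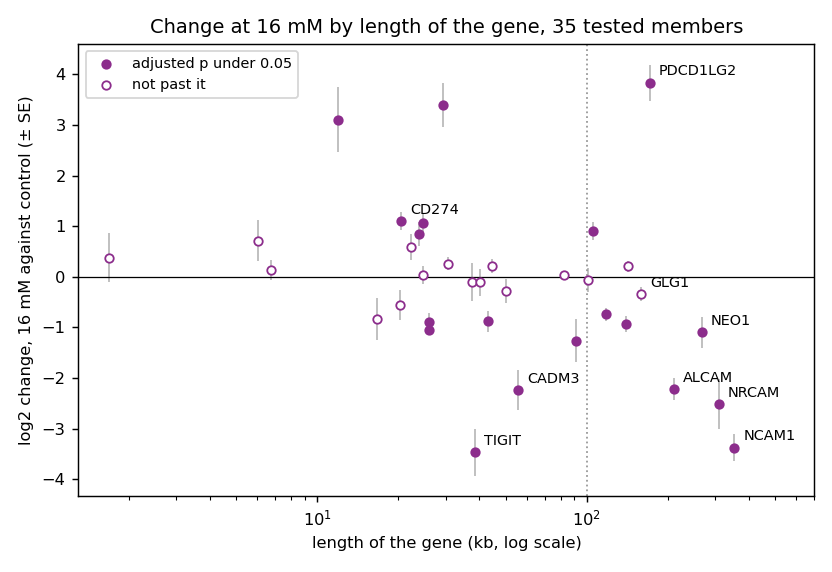
Log2 change at 16 mM against control (± SE) of the 35 tested members by listed gene length on a logarithmic axis; filled points passed the edgeR adjusted p of 0.05 and the dotted line marks 100 kb. The long genes NCAM1, NRCAM, ALCAM and NEO1 lie low at the right, and PDCD1LG2 lies high among them.

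The intracellular partners of these molecules were examined as a separate list of 24 junction scaffolds and sheddases, of which 22 were tested. At 16 mM 2 were higher and 7 lower, where 17.3% of all tested genes were higher and 18.1% lower (median log2 change -0.36, all tested genes 0.00). The partners named here are outside the rule for named genes. MAGI1 had the largest fall of the list, with a log2 change of -4.06 ± 0.35 (edgeR adjusted p = 2.68e-07). JUP (plakoglobin), which links cadherins to intermediate filaments, rose by 0.73 ± 0.18 on the log2 scale (edgeR adjusted p = 0.00407). The desmosomal plakophilin PKP2 fell by 1.74 ± 0.17 (edgeR adjusted p = 8.71e-07). AFDN, the partner of nectin tails, changed by -0.47 ± 0.22 (edgeR adjusted p = 0.102). ADAM10 and ADAM17 did not pass (-0.58 ± 0.25 and -0.33 ± 0.19, edgeR adjusted p = 0.087 and 0.212). Without 10 mM library 1, AFDN, ADAM10 and ADAM17 were lower (edgeR adjusted p = 1.18e-05, 2.69e-06 and 0.000344), and the list had 5 higher and 13 lower, where 33.7% of all tested genes were higher and 32.2% lower. Of the 42 pathway genes that the rule left out, 21 were tested. With all libraries 2 of these were higher and 10 lower at 16 mM, where 17.3% of all tested genes were higher and 18.1% lower. Their median log2 change was -0.53 (all tested genes 0.00).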

How the data were processed

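Messenger RNA of 17 BEAS-2B libraries was captured by its poly-A tail, per the labels' protocols, and groups and replicate numbers come from the sample titles. Per the submitters' processing notes the build was GRCh38.p13 and the tools included DESeq2 1.4.5, RSEM 1.3.1, Bowtie2 2.3.4.3 and HISAT, with no role given for any. Strandedness was not stated in the sources, so reads of overlapping and antisense genes cannot be told apart. The authors deposited expected counts per gene, not normalized, and FPKM, scaled for length and depth, per the file headers. The deposited table also holds TPM, and the log2 fold change, p-value and q-value of each comparison the authors made, used for checks or where that table is named.

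Expected counts were rounded and tested with edgeR 4.0.16 in R 4.3.3 (quasi-likelihood, TMM factors, filterByExpr, two-sided, Benjamini-Hochberg over 12564 genes, called at an adjusted p under 0.05) in 1 fit over 17 libraries with 14 residual degrees of freedom. In every library the filter kept 99.95% of counts or more. Each SE comes from the log2 change and its F statistic (change over root F). The code was tested on simulated data. Close sets were libraries of a group with r of at least 0.99. Pairs of libraries differed by at least 1.44 times sampling noise (chi-square), so none was taken for a duplicate deposit. This does not show that they come from separate cultures. Replicate numbers did not pair the samples. Alternatives were size factors from DESeq2, a replicate block, the DESeq2 1.42.0 Wald test, limma 3.58.1 on log2(FPKM + 1) or log2(FPKM + 0.1) with at least 1 FPKM in 5 libraries, no filters, only the groups compared, close sets summed and each library left out. Summing close sets without 10 mM library 1, and the matching of close sets across doses as a block, were added after seeing the data.

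Members and lists were chosen with earlier results of these data known. Named members were, per comparison, up to 6 largest rises and 6 largest falls among called members whose higher group had a mean of 1 FPKM or more. To these were added up to 3 called members per role list (or else the 2 most abundant), the 8 most abundant members, and members whose call turned direction without 10 mM library 1. Coordinates are those of the deposited table.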

Additional observations from a re-analysis of the deposited data

Results flagged for a closer look

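Single libraries of the named members were examined in 69 groups of values (23 members in 3 groups), and in 16 of them the highest or lowest library stood far from the others, by a gap wide against the range of its group (Dixon's 95% critical value). Chance flags about 1 in 20 groups. Library 1 of the 10 mM group accounted for 12, 9 of them low. Low there were F11R at 3.48 FPKM, LOC102723996 at 0.33, MPZL1 at 20.29, NECTIN1 at 3.03, NECTIN2 at 17.52, NEO1 at 0.89, PTPRF at 8.75, SDC2 at 8.81 and SDC3 at 5.55 FPKM. High there were CD99 at 140.41, PVR at 40.01 and SELPLG at 1.22 FPKM. ALCAM, at 68.32 FPKM in that library, was not among them.

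The other 4 were CD99 and F11R in control library 1, both the lowest of their group at 103.7 and 16.59 FPKM, CDH15 in control library 1 at 0.02 FPKM, which is 1 count where the other controls had 0, and NCAM1 in 16 mM library 1, the highest of its group at 0.37 FPKM. The NCAM1 value stood below every control.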

How the results depend on the processing

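Counts of called members are given as higher and lower, with all libraries first (6 and 8 at 10 mM against control, 7 and 12 at 16 mM against control, 2 and 4 at 16 mM against 10 mM). Without 10 mM library 1 they were 11 and 15, 12 and 15, and 5 and 13. With the replicate number as a block as well they were 11 and 15, 12 and 16, and 6 and 13. The block with all libraries gave 5 and 7, 7 and 12, and 2 and 4. Replicate numbers are not a pairing here (12 of 16 same-numbered pairs had a correlation of deviations over 0.1, from -0.39 to 0.41, and 2 of 17 libraries correlated best with their own number). Close sets summed gave 0 and 0 in each comparison, at unadjusted p under 0.05 3 and 5, 4 and 8, and 1 and 2, and without 10 mM library 1 as well they gave 1 and 3, 7 and 11, and 0 and 0. With matching close sets as a block and without 10 mM library 1 the counts were 13 and 16, 12 and 16, and 6 and 16, and with close sets summed too 5 and 7, 9 and 15, and 3 and 5. Only the groups compared gave 2 and 6, 11 and 15, and 1 and 2. The DESeq2 Wald test gave 9 and 12, 8 and 14, and 3 and 8. Limma on log2(FPKM + 1) gave 0 and 7, 5 and 11, and 2 and 1, limma on log2(FPKM + 0.1) gave 0 and 6, 5 and 10, and 2 and 1, and limma on log2(FPKM + 1) with no filter gave 3 and 11, 10 and 13, and 3 and 2. For the 0 higher by limma at 10 mM, 3 and 2 members had an unadjusted p under 0.05. DESeq2 size factors and edgeR with no filter on low counts stayed within 1.5 times of each count. Leaving out each library in turn gave 4 to 11 higher and 5 to 15 lower at 10 mM, 7 to 12 and 11 to 15 at 16 mM, and 1 to 5 and 3 to 13 between the doses. The number of members tested also changed, from 35 with all libraries to 47 with close sets summed. It was 85 for the DESeq2 Wald test and fits with no filter, 27 for filtered limma, and 32, 35 and 34 for only the groups compared. These counts are thus not directly comparable. The share of all tested genes was taken only for the fits where it is given above, and for no unadjusted p.

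Some log2 changes turned sign, and the cause was not tested. At 10 mM against control, CD99 was -0.21 without 10 mM library 1 (also as replicate 1), -0.24 with the replicate block as well, -0.21 with close sets summed as well, -0.19 with matching sets as a block, -0.20 with both, and -0.13 in each of the 3 limma fits. PVR was -0.20 in each of those first 3 ways save -0.18 with close sets summed, -0.20 with matching sets as a block, -0.19 with both, and -0.13 by limma. Leaving out each library in turn gave -0.21 to 0.23 for CD99 and -0.20 to 0.30 for PVR. MPZL1 was -0.0443 on log2(FPKM + 1), with or without the filter, and -0.0470 on log2(FPKM + 0.1), NECTIN2 -0.0348, -0.0385 and, with close sets summed, -0.0254, and PTPRF -0.10, -0.11 and -0.0805. At 16 mM against 10 mM, PTPRF was 0.0333 on log2(FPKM + 1), 0.0455 on log2(FPKM + 0.1) and 0.00730 with close sets summed. Over the named members, 532 of the values under other settings kept direction and side of the threshold, 102 lost the threshold and 87 gained it, and leaving out a library gave 866, 47 and 20.

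Few counts limit CD22, SELPLG, PDCD1LG2 and CDH3, and 50 of the 85 members did not pass the count filter of the edgeR fit. Fits without that filter called 6 of them in some comparison, on at most 14 counts in any library: CDH15, CLDN5, CLDN9, CLDN14, ESAM and VCAN, named after their values were seen. Library 1 of the 10 mM group also sets the spread that the fit shares with the 16 mM comparison. Reads of overlapping rows (9 of the 35 tested members) cannot be told apart.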
